A study of Homo sapiens with 3 samples.

Results

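Aminoacyl-tRNA synthetases attach each amino acid to its transfer RNA, and 2 partly separate sets of them serve the cytosol and the mitochondria. The genes described here are the nuclear genes of both sets plus the scaffold proteins AIMP1 and AIMP2, taken by symbol. Of the 39 genes that the symbols cover, 36 had a probe set naming that gene alone, out of 18417 genes named on the array: 19 cytosolic enzymes or subunits, 16 mitochondrial enzymes and AIMP1. The other 3, AIMP2 among them, were not analysed here. All 36 passed the level filter that left 12063 genes in the comparisons. All 36 also exceeded the background line of each of the 3 arrays, set where 95% of 483 genes not expected in these cells, such as olfactory receptors, fall below it.

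The RNA came from H9, an established human embryonic stem cell line, and the labels call the cells behind the total RNA sample pluripotent. Polysome-bound RNA carries several ribosomes per transcript, polysome-unbound RNA is free of polysomes, and total RNA was taken without that separation. The labels do not say how polysomes were separated. Each was measured on 1 Affymetrix whole-transcript array, so no difference below has a replicate check and no p-value is given. RNA of the bound and unbound fractions was purified with the PureLink kit and total RNA with RNeasy Plus, and for comparisons with total RNA the effect of the kit and that of the source cannot be told apart. In a bulk sample, less RNA of a gene in every cell and fewer cells with that RNA cannot be told apart either. On the total RNA array 14 of 14 measured pluripotency markers were above background, led by LIN28A at a log2 level of 11.10. Above background as well were 8 of 10 fibroblast markers (highest COL1A2, 10.11), 10 of 11 germ layer markers (KDR, 8.81) and 4 of 6 trophoblast markers (TFAP2C, 7.08). The background line was passed on that array by 63.6% of all named genes. List medians were 9.05 (pluripotency), 5.58 (fibroblast), 4.10 (germ layer) and 5.23 (trophoblast), against a line of 3.76. Whether fibroblast, germ layer or trophoblast cells were present, and their part in the results, was not tested.

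In animals, many cytosolic synthetases are held in a multisynthetase complex on the scaffolds AIMP1, AIMP2 and EEF1E1, and the rest work as free enzymes that pass charged tRNAs to the elongation factor eEF1A. Mitochondrial synthetases are made in the cytosol from their own genes and imported. GARS1 and KARS1 are exceptions, since each gene makes both forms, and QARS1 has no mitochondrial partner because mitochondria charge glutamine tRNA indirectly through EARS2 and the amidotransferase GatCAB. The transcription factor ATF4, made when amino acids run short, is known to act on genes of many cytosolic synthetases.

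The values are log2 levels as the authors deposited them. The arrays differ in their middle level: between medians over the 12063 genes, bound minus unbound was 1.26, bound minus total RNA 1.03 and unbound minus total RNA -0.23. A relative difference is the log2 difference minus this offset, and a gene is called apart at a relative difference of 1, which is 2-fold. The median relative difference over all 12063 genes was -0.07 for bound minus unbound, -0.14 for bound minus total and -0.07 for unbound minus total RNA. As a gauge of probe set disagreement, 2 probe sets of one gene were compared where their levels were at least 0.1 apart. Over 307 genes the median gap was 0.27, 0.21 and 0.26 in these 3 differences. In the least concordant of these genes the gap was far wider, since 1.11, 0.72 and 1.11 are its upper-decile values. Both sets are read on the same arrays, so the gauge leaves out error between arrays, fractions or RNA preparations.

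**Figure D1:**
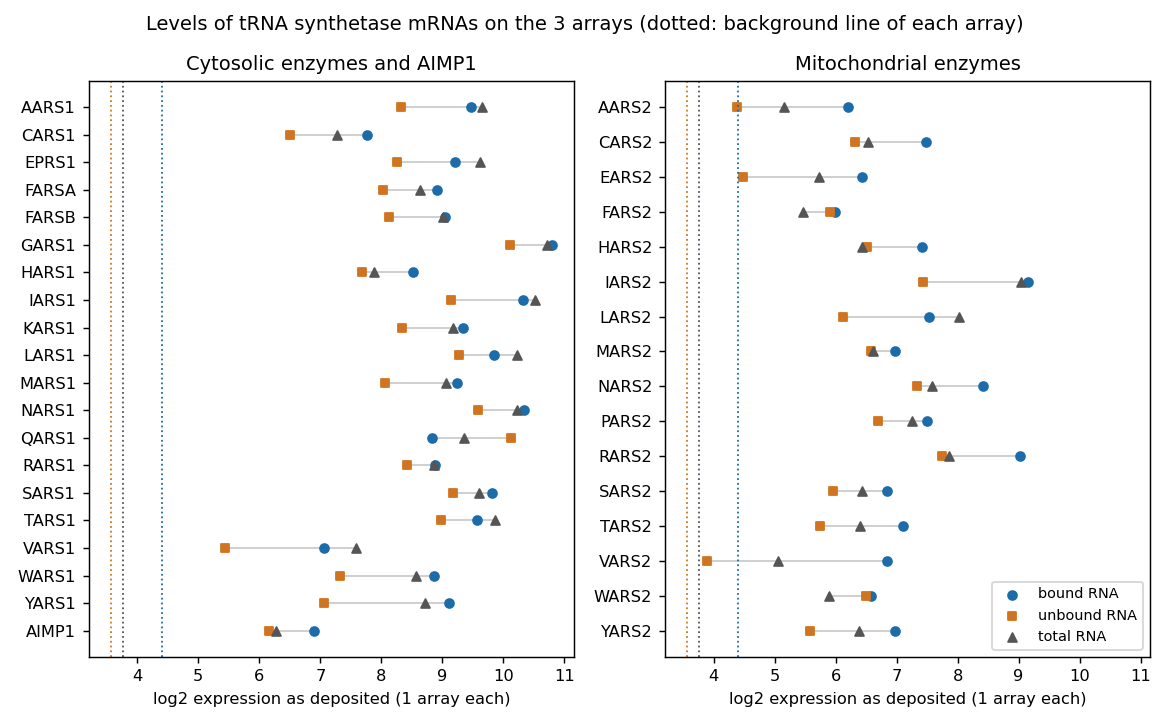
Log2 expression as deposited (horizontal axis) of each member on the bound (circle), unbound (square) and total RNA (triangle) arrays, 1 array each, with the background line of each array dotted. QARS1 is the one member whose unbound value (10.12) exceeds its bound value (8.82), and VARS2 spans the widest range, from 3.89 to 6.85.

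QARS1, the glutaminyl-tRNA synthetase of the multisynthetase complex, stood apart from every other member in the comparison of bound with unbound RNA. Its log2 level was 8.82 in bound, 10.12 in unbound and 9.36 in total RNA, so it was lowest on the array where the other 35 members were above their unbound level. The deposited difference was -1.29 and the relative one -2.56, a 5.89-fold lower relative level in bound RNA, and 1.14% of all genes lay lower. QARS1 was called lower with the values centred, as deposited, after quantile normalization and after removal of the trend with signal level by lowess.

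The other measured enzymes of the complex had relative bound minus unbound differences below 0 with centred arrays. RARS1, the arginine enzyme that AIMP1 binds, had levels of 8.88, 8.41 and 8.86 in bound, unbound and total RNA and a relative bound minus unbound difference of -0.80. LARS1, the leucine enzyme that also senses leucine for mTORC1, had levels of 9.84, 9.26 and 10.22 and a difference of -0.69. EPRS1, which carries the glutamate and proline activities in one chain, had 9.20, 8.25 and 9.62 and -0.31. These 3 were all above their unbound level as deposited and had relative differences below 0. KARS1 (lysine, -0.27), IARS1 (isoleucine, -0.08) and MARS1 (methionine, -0.08) were nearer to 0. IARS1 changed side with the scaling, to 0.26 after quantile normalization and 0.18 with lowess. The 7 measured complex enzymes had a median of -0.31, or -0.29 without QARS1, and AIMP1, at 6.89, 6.15 and 6.27, had -0.52.

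Among the 12 free cytosolic enzymes and subunits the median was -0.37, from TARS1 (threonine, -0.67) to YARS1 (tyrosine, 0.78). The 2 sets overlapped between -0.67 and -0.08. SARS1 (serine, -0.61), GARS1 (glycine, -0.57), NARS1 (asparagine, -0.50) and HARS1 (histidine, -0.44) were on the unbound side with centred arrays. The side of GARS1 depends on the scaling, since it was at 0.053 after quantile normalization and 0.024 with lowess, and NARS1 was then at -0.145 and -0.136. FARSA (-0.38) and FARSB (-0.36), the alpha and beta subunits of the phenylalanine enzyme, differed by less than the usual gap between probe sets of one gene. AARS1 (alanine, -0.12) lay near 0, and CARS1 (cysteine), with levels of 7.77, 6.51 and 7.27, had a relative difference of -0.0005. WARS1 (tryptophan, 0.28), VARS1 (valine, 0.36), which binds eEF1, and YARS1 lay on the bound side. YARS1, at 9.10 in bound, 7.06 in unbound and 8.71 in total RNA, was the furthest of the cytosolic enzymes to that side and was not called.

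Catalytic domains of these enzymes are of 2 unrelated folds. The 9 cytosolic enzymes and subunits of class II, with FARSA and FARSB counted separately, had relative bound minus unbound differences between -0.67 and -0.12. The 9 of class I, which include QARS1 and YARS1, ran from -2.56 to 0.78, so they covered a wider range. EPRS1 has both folds and is left out of this split.

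In all, 1 of 19 cytosolic members was called lower (QARS1) and none higher. Over all genes 9.91% were called lower and 6.35% higher. No test across samples can be run with 1 array each, and a count of 1 of 19 is near that background. The median of the 19 was -0.36, and 16 of them were below 0, against 6493 of 12063 genes. After quantile normalization 12 of 19 were below 0, and with lowess 14 of 19. Without QARS1 the median was -0.34.

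**Figure D2:**
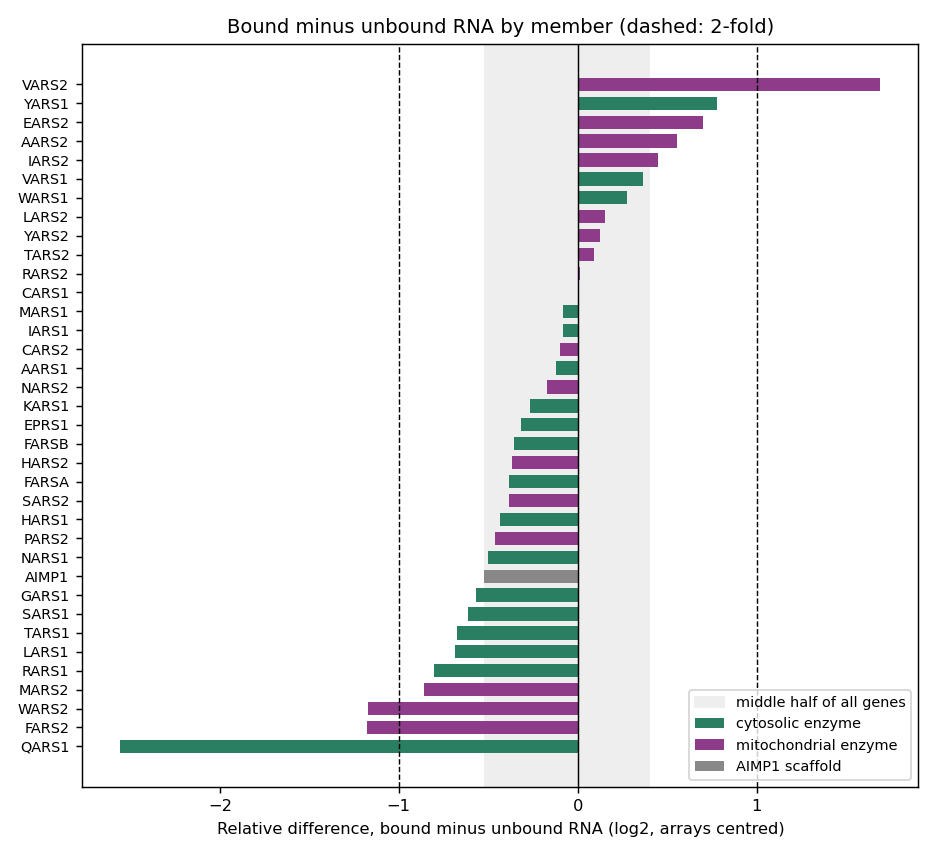
Relative difference of bound minus unbound RNA (log2, arrays centred) for each member, sorted, 1 array per source, with 2-fold dashed and the interquartile range of all genes in grey. QARS1 (-2.56), FARS2 (-1.18) and WARS2 (-1.17) lie past 2-fold on the unbound side and VARS2 (1.69) on the bound side.

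The mitochondrial enzymes spread to both sides. VARS2, the valine enzyme of mitochondria, had levels of 6.85 in bound, 3.89 in unbound and 5.06 in total RNA. Its relative difference was 1.69, a 3.23-fold higher relative level in bound RNA, and 99.45% of all genes lay lower. The unbound value is close to that array's background line of 3.56. VARS2 is covered by 2 probe sets, whose deposited bound minus unbound differences were 2.955 and 2.996. The 2 VARS2 sets had nearly the same levels in bound (6.850 and 6.846), unbound (3.894 and 3.849) and total RNA (5.056 and 5.101). VARS1 also has 2 probe sets, with identical values. For neither gene can the 2 sets be read as independent measurements, so their agreement is no check on the difference.

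FARS2 and WARS2, the phenylalanine and tryptophan enzymes, were the mitochondrial members on the other side. FARS2 had levels of 5.99, 5.91 and 5.46 in bound, unbound and total RNA and a relative difference of -1.18. WARS2 had 6.587, 6.497 and 5.886 and a relative difference of -1.17. Both were nearly level between the bound and unbound arrays as deposited (0.084 and 0.090), and their calls rest on the offset between the arrays. MARS2 (methionine, -0.86), at 6.98, 6.57 and 6.61, was next and was not called.

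Other mitochondrial enzymes lay between these. PARS2 (proline) had -0.46, SARS2 (serine) -0.38, HARS2 (histidine) -0.37, NARS2 (asparagine) -0.17 and CARS2 (cysteine) -0.10. RARS2 (arginine) was at 0.01, TARS2 (threonine) at 0.09, YARS2 (tyrosine) at 0.13 and LARS2 (leucine) at 0.15. On the bound side were IARS2 (isoleucine, 0.45), AARS2 (alanine, 0.55) and EARS2 (glutamate, 0.70). EARS2, with levels of 6.44, 4.48 and 5.72, also charges mitochondrial glutamine tRNA in its first step, and QARS1, which serves glutamine in the cytosol, was the furthest member to the unbound side.

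Of the 16 mitochondrial enzymes 2 were called lower and 1 higher, where the shares over all genes were 9.91% and 6.35%. These counts are near that background, and the standard deviation of the 16 differences was 0.73, against 0.80 over all genes. The median of the 16 was -0.04, with 8 members on each side of 0. The cytosolic median was below the mitochondrial one by 0.31, and 15 of the 16 mitochondrial values lay within the cytosolic range. After quantile normalization, where 8.73% of genes were called lower and 8.12% higher, and after lowess, with 9.33% and 6.37%, the same 4 members were called. The cytosolic median was then -0.17 and -0.22, and the mitochondrial one -0.04 and -0.08, so the gap between them narrowed to 0.13 and 0.14. As deposited the offset puts most genes on the bound side, with 61.4% called higher and 1.56% lower. On that scale 7 cytosolic members (AARS1, CARS1, IARS1, MARS1, VARS1, WARS1 and YARS1) were higher and QARS1 lower, and 10 of 16 mitochondrial members were higher.

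Start sequences were examined because QARS1 stood apart, so their choice followed the values. Many mRNAs of the translation machinery begin at a C followed by a run of pyrimidines, the terminal oligopyrimidine motif, through which growth signals control their use by ribosomes. RefSeq promoter windows, 250 bases before to 50 after each annotated start on GRCh38.p14, were found for 31 of the 36 measured genes, with 42 windows. AARS2, LARS1, VARS1, VARS2 and YARS1 had none. A C at the start followed by at least 4 pyrimidines was present at 1 of 21 windows of cytosolic genes, QARS1, and at 1 of 18 of mitochondrial genes, WARS2. The share was 4.07% of all 35116 windows and 5.14% of the 14280 windows of genes past the level filter.

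The lines below show 10 bases before and 20 bases from the annotated start, with the C and its pyrimidine run in capitals, for the 2 genes with the run at the start, for KARS1 and AIMP1, where it begins 1 base later, and for RARS1, the complex enzyme next to QARS1 in the ranking, which has none. QARS1 is at chr3:49104738-49104767 (minus strand), WARS2 at chr1:119140634-119140663 (minus), KARS1 at chr16:75647646-75647675 (minus), AIMP1 at chr4:106315534-106315563 (plus) and RARS1 at chr5:168486461-168486490 (plus).
QARS1: gcctaagtttCTTTTagtttccggtgtctc
WARS2: cggctccgccCTTCTCaagatggcgctgca
KARS1: tatcctccttaCTTTTgggtcgggccctcc
AIMP1: cctctgcttcaCTTTCTCCTactgctcaag
RARS1: gcttccgtccacttggcgagtgagacgctg

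QARS1 and WARS2 had relative bound minus unbound differences of -2.56 and -1.17, both called lower, while KARS1 had -0.27, AIMP1 -0.52 and RARS1 -0.80. The run in WARS2 follows one of its 2 annotated starts, and the other start has none. AIMP1 has 3 annotated starts, of which the one with the longest run is shown, another has a run of 6 and the last has none. Over the 9715 genes with a window and past the level filter, the 720 with such a start had a median of -0.41 and 26.5% called lower, against -0.02 and 7.54% for the other 8995. FARS2, called lower as well, has no such run exactly at an annotated start. When the run could begin up to 2 bases from the start, it was found in 4 of 16 cytosolic genes (GARS1, KARS1, QARS1 and WARS1), in 2 of 14 mitochondrial genes (FARS2 and WARS2) and in 16.4% of the 9715 genes. Of those not shown above, WARS1 (0.28) lay on the bound side, GARS1 (-0.57) changed side with the scaling and FARS2 had -1.18. A match describes letters in an annotated window, and whether H9 cells use the annotated starts was not measured. Whether the run has a part in any of these differences was not tested.

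Against total RNA the cytosolic enzymes were at lower relative levels in bound RNA, all 19 of them below 0, with a median of -0.94 and a range from -1.56 to -0.40. Called lower were QARS1 (-1.56), VARS1 (-1.55), EPRS1 (-1.45), LARS1 (-1.41), TARS1 (-1.33), IARS1 (-1.23), AARS1 (-1.20) and RARS1 (-1.02), and FARSB, at -0.997, just missed the line. That is 8 of 19, against 6.41% of all genes called lower and 2.66% higher. HARS1, at 8.51 in bound and 7.88 in total RNA, was the least low at -0.40. As deposited the median of the 19 was 0.085, where the median over all genes was 0.89. The bound values appear to carry an added constant, so the sign of a deposited difference cannot be read as more or less RNA.

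The size of the shift of the cytosolic enzymes against total RNA depended on the scaling. With the trend of the difference on level removed by lowess, the cytosolic median was -0.49, and it was also -0.49 after quantile normalization. The members called lower were then QARS1, VARS1 and EPRS1, 3 of 19 with both scalings, against 3.68% of genes with lowess and 3.54% after quantile normalization. The all-gene median was 0.01 with both. All 19 cytosolic members and 13 of 16 mitochondrial ones were below 0 with both, as with centred arrays.

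Mitochondrial enzymes had a median of -0.33 for bound minus total RNA. Of the 16, 1 was called lower, near the 6.41% of all genes called lower. LARS2, at 7.53 in bound, 6.12 in unbound and 8.02 in total RNA, was that member (-1.51). IARS2 followed with -0.91, PARS2 with -0.79, MARS2 with -0.66 and SARS2 with -0.61. At the other end were VARS2 (0.76), RARS2 (0.14) and AARS2 (0.02). All 19 cytosolic members lay below the mitochondrial median and 15 of 16 mitochondrial members above the cytosolic one, with 0.62 between the medians. After lowess the gap was 0.15 and after quantile normalization 0.16, since the mitochondrial median hardly moved (-0.34 and -0.33). The gap between the compartments in this comparison therefore depends on how the trend with signal is treated.

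**Figure D3:**
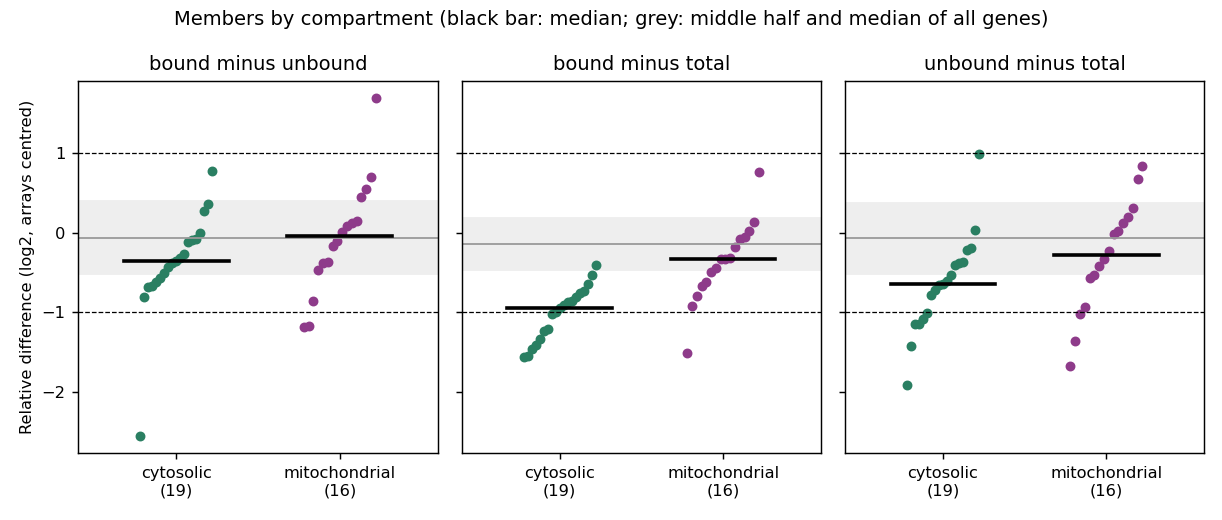
Relative differences (log2, arrays centred) of the 19 cytosolic and 16 mitochondrial enzymes in the 3 comparisons, 1 point per gene and 1 array per source. Black bars are medians, grey bands the interquartile range of all genes and grey lines their median. The cytosolic points for bound minus total RNA all lie below 0, with a median of -0.94 against -0.33 for the mitochondrial ones.

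Unbound minus total RNA shares the total RNA array with the comparison above, so its values are given beside those and not as separate support. The cytosolic median was -0.64, and 6 of 19 were called lower: VARS1 (-1.91), YARS1 (-1.42), IARS1 (-1.15), EPRS1 (-1.14), AARS1 (-1.09) and WARS1 (-1.002). Of the 16 mitochondrial enzymes, with a median of -0.28, LARS2 (-1.67), IARS2 (-1.36) and EARS2 (-1.01) were called lower. None of either set was called higher, and the shares over all genes were 9.96% lower and 8.09% higher. QARS1, at 0.99, was just below the line on the higher side, and WARS2 (0.84) and FARS2 (0.68) came next. With lowess, where 7.55% of genes were called lower, and after quantile normalization, where 8.08% were, the cytosolic genes called lower were VARS1 and YARS1. QARS1 was then past the line, at 1.18 with lowess and 1.06 after quantile normalization.

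Setting each mitochondrial enzyme beside the cytosolic enzyme of the same amino acid gives 13 pairs. In bound minus total RNA the mitochondrial enzyme had the higher relative difference in 12 of 13, with a median gap of 0.40. The pair for valine was widest, with VARS1 at -1.55 and VARS2 at 0.76, and AARS1 (-1.20) with AARS2 (0.02) and RARS1 (-1.02) with RARS2 (0.14) followed. LARS1 (-1.41) and LARS2 (-1.51) were the pair in the other order. With lowess the mitochondrial member was higher in 8 of 13 pairs with a median gap of 0.17, and after quantile normalization in 9 of 13 with 0.14, so the order of most narrow pairs is not settled by these arrays.

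In bound minus unbound RNA the mitochondrial enzyme was higher in 9 of 13 pairs, with a median gap of 0.33, and in 7 of 13 with lowess or quantile normalization. The pairs for tryptophan and valine went opposite ways. WARS1 was at 0.28 and WARS2 at -1.17, while VARS1 was at 0.36 and VARS2 at 1.69. These are the pairs whose gap exceeded 1. Phenylalanine, whose cytosolic enzyme has 2 subunits, had FARSA at -0.38, FARSB at -0.36 and FARS2 at -1.18. The glutamate and proline activities of EPRS1 (-0.31) are split in mitochondria between EARS2 (0.70) and PARS2 (-0.46), which lay on opposite sides of it.

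**Figure D4:**
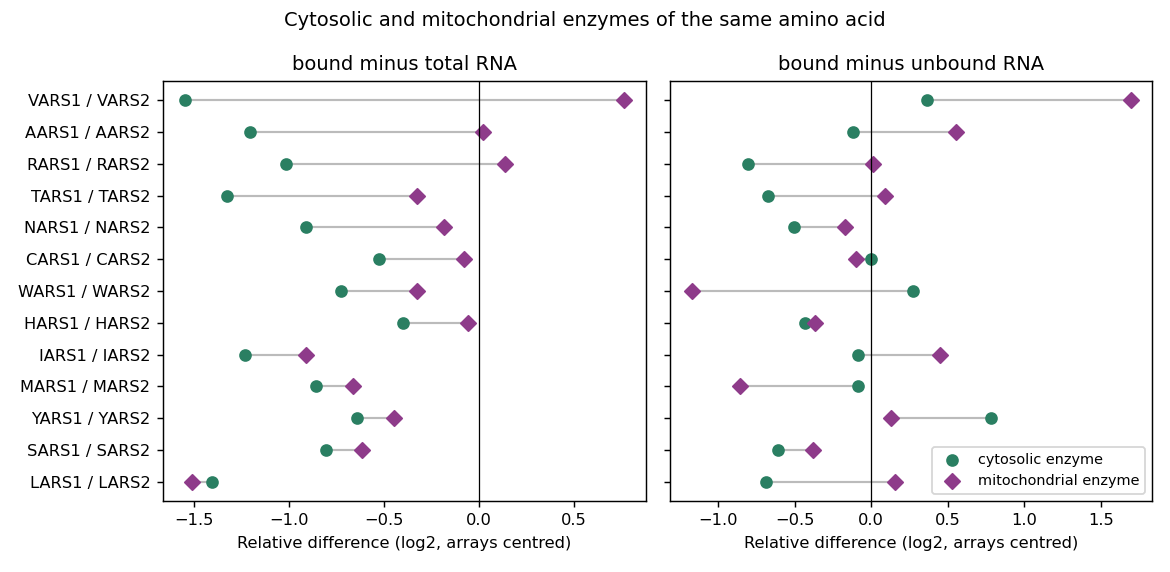
Relative differences (log2, arrays centred) of the 13 amino acids with 1 cytosolic (circle) and 1 mitochondrial (diamond) enzyme, for bound minus total RNA and bound minus unbound RNA, 1 array per source. The mitochondrial enzyme lies to the right in 12 of 13 pairs on the left panel and in 9 of 13 on the right panel.

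HARS1 and HARS2 are a special pair, because they lie head to head and are read in opposite directions from one short stretch. Their annotated starts on chromosome 5 are separated by 84 bases, at chr5:140691371-140691454 on GRCh38.p14. The plus strand of that stretch, which reads toward HARS2, is shown to let the shared promoter be seen, with both matches to the ETS factor core CCGGAAG (either strand) in capitals.
HARS1 to HARS2: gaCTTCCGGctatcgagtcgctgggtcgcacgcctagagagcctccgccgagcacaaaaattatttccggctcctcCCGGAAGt
The core was present in 10.3% of all promoter windows and 16.3% of those of genes past the level filter, in 11 of 21 cytosolic and in 8 of 18 mitochondrial windows. Levels of HARS1 were 8.51, 7.69 and 7.88 in bound, unbound and total RNA, and those of HARS2 7.41, 6.52 and 6.44. Their relative bound minus unbound differences, -0.44 and -0.37, were the closest of the 13 pairs with centred arrays. After quantile normalization SARS1 (-0.365) and SARS2 (-0.382) were closer than HARS1 (-0.463) and HARS2 (-0.384). With lowess the serine pair was also closer, at -0.421 and -0.437 against -0.501 and -0.417. For bound minus total RNA, HARS1 and HARS2 had -0.40 and -0.06 and were not the closest pair.

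A second promoter feature, also chosen after the values were seen, was counted in both sets. TGATGCAA, the core of the composite C/EBP-ATF response element that ATF4 binds, was searched on both strands and found in 6 of 16 cytosolic genes with a window and in none of 14 mitochondrial genes, against 1.08% of all genes with a window and 0.751% of those past the level filter. The genes were AARS1, CARS1, IARS1, MARS1, NARS1 and TARS1. In 5 of them the core lies on the strand opposite to transcription, so it reads as its reverse complement, and in NARS1 on the same strand. The 30-base stretches around it are shown because the core lies close to the annotated start in all but AARS1. The core begins at position -13 in IARS1, -4 in MARS1, -2 in CARS1 and 3 in TARS1, counted from the start site as 1 with no 0, at 15 in NARS1 and at -187 in AARS1. Coordinates on GRCh38.p14 are chr9:92293692-92293721 (minus strand) for IARS1, chr12:57488053-57488082 (plus) for MARS1, chr11:3057407-3057436 (minus) for CARS1, chr5:33440956-33440985 (plus) for TARS1, chr18:57621804-57621833 (minus) for NARS1 and chr16:70289675-70289704 (minus) for AARS1.
IARS1: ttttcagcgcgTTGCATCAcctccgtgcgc
MARS1: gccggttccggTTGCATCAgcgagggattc
CARS1: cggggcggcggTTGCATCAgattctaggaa
TARS1: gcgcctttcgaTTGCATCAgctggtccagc
NARS1: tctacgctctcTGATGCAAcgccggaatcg
AARS1: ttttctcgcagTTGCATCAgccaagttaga

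The 6 cytosolic genes with the core had a median relative bound minus unbound difference of -0.10 and a bound minus total difference of -1.06, and the 10 without it had -0.41 and -0.91. No binding was measured in these cells. In the pathway that ATF4 serves, the transcript of ATF4 itself was on the unbound side. The ATF4 transcript had levels of 10.34, 10.44 and 9.60 in bound, unbound and total RNA and a relative bound minus unbound difference of -1.36. Upstream reading frames in its leader are known to hold back its translation, and their part in this value was not tested. In the list of 29 measured genes of amino acid synthesis and ATF4 targets, 3 were called lower and 2 higher, near the shares of 9.91% and 6.35% over all genes, with a median of -0.25. ASNS, the asparagine synthetase, had -1.16, and the amino acid transporters SLC7A11 and SLC7A5 had 1.18 and 1.35.

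The partners that receive or prepare tRNAs are given here beside the synthetases. Of the eEF1 subunits, eEF1A takes charged tRNAs to the ribosome and the others belong to the complex that exchanges its nucleotide. Of the 5 eEF1 genes measured, 4 lay further to the unbound side than all synthetases but QARS1. EEF1G had a relative bound minus unbound difference of -2.11, EEF1D -2.10, EEF1A1 -1.70, EEF1B2 -1.44 and EEF1A2, a tissue-restricted form, -0.97. QARS1 (-2.56) was below all of these. In EEF1A1, levels were 12.69, 13.13 and 13.16 in bound, unbound and total RNA. For bound minus total RNA with centred arrays, the eEF1 median was -1.07 and 4 of 5 were called lower, against 6.41% of all genes. The cytosolic synthetases had a median of -0.94 there. Medians of the ATF4 list above and of the lists below ran from -0.44 to -0.16.

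Genes of other aminoacylation steps lay nearer to 0. The 10 measured genes of indirect charging, formylation, trans-editing and tRNA export had a median of 0.27 and none was called, from QRSL1 (-0.47) and SEPSECS (-0.33) to the tRNA exporter XPOT (0.51) and GATB (0.62). QRSL1 and GATB are subunits of GatCAB, the enzyme that finishes mitochondrial glutamine tRNA. EEF1E1 was not analysed here. Among 17 mitochondrial translation factors, a list that also holds GatCAB and the formyltransferase MTFMT, 2 were called lower, the recycling factor MRRF (-1.66) and the release factor MTRF1 (-1.15), and the elongation factor TSFM (0.94) and the hydrolase MRPL58 (0.86) were furthest to the bound side. That count is near the 9.91% of all genes called lower. Their median was -0.11, against -0.04 for the mitochondrial synthetases.

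Of 21 genes of tRNA end and splice processing, 1 was called lower, THG1L (-1.89), which adds the guanine of histidine tRNA that HARS1 and HARS2 recognise, and 1 higher, the splicing endonuclease subunit TSEN15 (1.11). TRMT10C (-0.65) and TSEN34 (0.51) were next in either direction, and the median was -0.13. Of 56 tRNA modification genes 5 were called lower and none higher, with a median of -0.36, equal in size to that of the cytosolic synthetases. TRMT1 (-1.14) and QTRT1 (-1.13) were lowest and NSUN2 (0.59) and ADAT3 (0.90) highest. The counts in these lists, too, are read against 9.91% of all genes called lower and 6.35% higher, and 5 of 56 is near that background.

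Over the 35 enzymes, which share the same 3 arrays, the relative bound minus unbound difference had a Pearson correlation of 0.003 with the log2 genomic span of the gene and a Spearman correlation of 0.06. For bound minus total RNA they were -0.11 and -0.12, and for unbound minus total RNA -0.09 and -0.20. These weak correlations are given as a description.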

How the data were processed

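Members and lists were chosen with earlier results of these data known. Each probe set has 1 log2 value per array in the authors' deposited table. RMA and Partek 6.5 are the tools listed, per the submitters' processing notes. The 3 columns do not share a distribution, and all 33297 bound values end in the same 2 decimals at 7 decimal places, which points to an added constant. Centring removes it. Depth has no meaning for arrays, and the 1 array per group limits precision.

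Of 33297 probe sets, 19460 list 1 gene symbol in GEO's platform annotation, 1754 several and 12083 none. RefSeq gene IDs matched 19429 and changed 0 symbols. The probe set with the highest mean stood for each of 769 genes with several. Genes with a mean above 3.84, the 95th percentile of 483 olfactory, taste, keratin-associated and defensin genes, were kept. Arrays were centred on their medians, and 2-fold differences were called with no test. Every member is named, with the 2 highest and 2 lowest of each list (all 5 for eEF1). Cell type marker lists for pluripotent, fibroblast, germ layer and trophoblast cells were read on total RNA. Alternatives were no filter or the 99th percentile, values as deposited, quantile normalization, lowess (span 0.3), the mean of probe sets, genes with 1 probe set, 1.5-fold and 3-fold, list means, and lists without GARS1, KARS1 and QARS1. The gaps between compartments in both comparisons with total RNA, lists without QARS1, scaling checks of the pairs and all promoter motifs were added after the data were seen. Scripts were tested on simulated data. Tools were Python 3.11.15, numpy 2.4.6, pandas 2.3.3, scipy 1.17.1, statsmodels 0.14.6 and matplotlib 3.10.9.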

Additional observations from a re-analysis of the deposited data

How the results depend on the processing

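No paired analysis was possible because each group has 1 array. Values as deposited add one constant per comparison to all genes, so gaps between groups cannot change there or with the level filter, and those settings say nothing about their stability. As deposited, bound minus unbound medians were 0.91 (cytosolic) and 1.22 (mitochondrial) and bound minus total medians 0.085 and 0.70, all of opposite sign to the centred ones. The called members for bound minus unbound were then 8 and 10. The constant turned the sign of 24 of 36 members for bound minus unbound and 25 for bound minus total RNA, and among called members that of FARS2 (0.084), WARS2 (0.090) and, for bound minus total, RARS1 (0.013). For bound minus total, the cytosolic median was -0.49 under quantile normalization and -0.49 under lowess, and the cytosolic minus mitochondrial gap was -0.16 and -0.15. That gap for bound minus unbound went from -0.31 to -0.13 and -0.14, and for unbound minus total from -0.36 to -0.19 and -0.20. For unbound minus total, the cytosolic median was -0.38 under lowess. Cytosolic members called for bound minus unbound numbered 6 at 1.5-fold and 0 without GARS1, KARS1 and QARS1, and mitochondrial members called numbered 5 at 1.5-fold and 1 at 3-fold, where 39.8% and 4.73% of all genes were past the line in either direction. For bound minus unbound, GARS1 and IARS1 changed sign under both scalings, AARS1 and CARS1 under quantile normalization and RARS2 under lowess. The cause of the scaling differences was not tested. The unbound level of VARS2 (3.89) is the member value closest to its array's background line (3.56).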
